A study of Homo sapiens with 9 samples.

Results

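The RNA of the ERBB receptors and their ligands was measured by RNA-seq in LNCaP:C4-2 cells, which derive from the prostate cancer line LNCaP and are castrate-resistant but enzalutamide-sensitive. The 10 genes were 4 receptors (EGFR, ERBB2, ERBB3 and ERBB4) and 6 ligands (AREG, EREG, TGFA, HBEGF, NRG1 and BTC), found by symbol through the Ensembl identifiers among the 60675 genes of the count tables. All cells had been transduced with a lentivirus carrying a doxycycline-inducible short hairpin RNA (shRNA). They were selected with puromycin into stable lines, which the paper calls clones. They were then grown in androgen-depleted, charcoal-stripped serum and treated, by the protocol in the labels, with 1 µg/ml doxycycline for 6 days. The titles of all 9 libraries also name a vehicle, without saying for which agent. The control cells carried the same vector with a scrambled hairpin (shScramble). The other cells carried 1 of 2 hairpins against METTL3, the catalytic subunit of the RNA m6A methyltransferase, labelled shMETTL3 guide 2 and shMETTL3 guide 1. Each group had 3 libraries with 21899501 to 30897639 counts assigned to genes, and the sources used here do not say whether these came from separate cultures, so p-values may measure technical spread only.

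ERBB receptors are tyrosine kinases that pair with each other when a ligand binds outside the cell, after which phosphorylated tails recruit adaptors that feed the RAS-ERK and PI3K-AKT cascades. EGFR binds EGF, TGFA, AREG, HBEGF, BTC and EREG. ERBB4 binds the neuregulins as well as HBEGF, BTC and EREG, and ERBB3 binds only some of the neuregulins, among them NRG1. ERBB2 has no known ligand and acts as the preferred partner of the other receptors, whereas the kinase of ERBB3 is impaired and its tail carries several docking sites for PI3K. In prostate cancer these receptors are known as a route of growth signalling that can operate when androgen is low.

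The hairpins differ only in their target sequence, and these are given because every comparison rests on them, 5′ to 3′, with the longest stretch that also occurs in a transcript of any of the 10 genes in capitals.

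shMETTL3 guide 2 target: gctGCACTTCAGAcgaattat

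shMETTL3 guide 1 target: cGTCAGTATCttgggcaagtt

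Each target of 21 bases was found whole in 5 of 14 METTL3 transcripts of GENCODE v44 and in 0 of the 131 transcripts of the 10 genes. The longest shared stretch was 10 bases for guide 2, in ERBB3, and 9 bases for guide 1, in ERBB2. METTL3 itself had a log2 fold change of -0.95 with guide 2 (adjusted p = 2.97e-12, edgeR's quasi-likelihood test) and of -0.08 in the libraries labelled guide 1 (adjusted p = 0.251). By METTL3 RNA, the latter therefore go against their label as a knockdown, and they are called by that label throughout. METTL3 protein was not measured in these libraries. The paper reports that it tested the hairpins against METTL3 and took forward the one that depleted it best.

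Expression is given as CPM, the count of a gene scaled to the size of its library by TMM, and levels of different genes are compared only as CPM per kilobase of exon. A gene was called when edgeR's quasi-likelihood test across all genes gave a Benjamini-Hochberg adjusted p under 0.05 and the fold change was at least 1.5, which is 0.58 on the log2 scale, the limits of the study. Of the 10 genes, 5 had enough counts to be tested: EGFR, ERBB2, ERBB3, TGFA and HBEGF. The other 5, ERBB4, AREG, EREG, NRG1 and BTC, did not pass the filter on low counts and are described by their counts.

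LNCaP:C4-2 control cells held the RNA of 3 of the 4 receptors, and 2 of these far above the ligands. In the shScramble libraries, ERBB3 stood at 21.9 ± 0.649 CPM per kilobase and ERBB2 at 21.8 ± 0.851 (SD, n = 3 libraries each). The ranges of these receptors overlapped, so they cannot be ordered. EGFR followed at 5.41 ± 0.346 CPM per kilobase. Among the member ligands, HBEGF, a heparin-binding growth factor, stood at 2.80 ± 0.275 CPM per kilobase and TGFA, an EGF-like growth factor, at 1.01 ± 0.0768. AREG (0.218 ± 0.0419) and BTC (0.107 ± 0.0312) lay well below these, and NRG1 had 2 counts over the 3 libraries. ERBB4 and EREG had 0 counts in every shScramble library, where 3 counts, the upper limit that a count of 0 allows, correspond to 0.0942 to 0.131 CPM. The floor covers counting error only.

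With shMETTL3 guide 2, 0 of the 5 tested members were called, while 29.3% of all tested genes were, 8.85% higher and 20.4% lower (edgeR's quasi-likelihood test, in which 3 members had an unadjusted p under 0.05). By the adjusted p alone, with no fold limit, 2 members passed, beside 61.8% of all tested genes. Before adjustment, at least that share of all tested genes was under 0.05. ERBB2 and ERBB3 were nevertheless higher in every guide 2 library than in any shScramble library, by less than the 1.5-fold limit. In the libraries labelled guide 1, ERBB2, ERBB3 and TGFA were called lower, 3 of 5, beside 16.5% of all tested genes called lower and 37.7% called either way. By the adjusted p alone 4 members passed there, beside 68.4% of all genes. Tested directly against each other, guide 2 libraries had more ERBB2, ERBB3, TGFA and HBEGF RNA than guide 1 libraries, 4 of 5, beside 19.1% of all tested genes called higher, 28.2% called lower and 47.3% called either way. The adjusted p alone passed the same number of members and 74.6% of all genes. The libraries of the compared groups did not overlap for 4 of the 5 tested members in each comparison, which was also the case for 66.5% of all tested genes with guide 2, for 71% with guide 1 and for 75.8% between the guides. The median log2 fold change of the tested members was 0.23 with guide 2, where that of all tested genes was -0.04, and -0.68 in the guide 1 libraries, where that of all tested genes was -0.02. In these bulk libraries, a smaller share of cells that express a gene and less of its RNA per cell cannot be told apart.

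**Figure D1:**
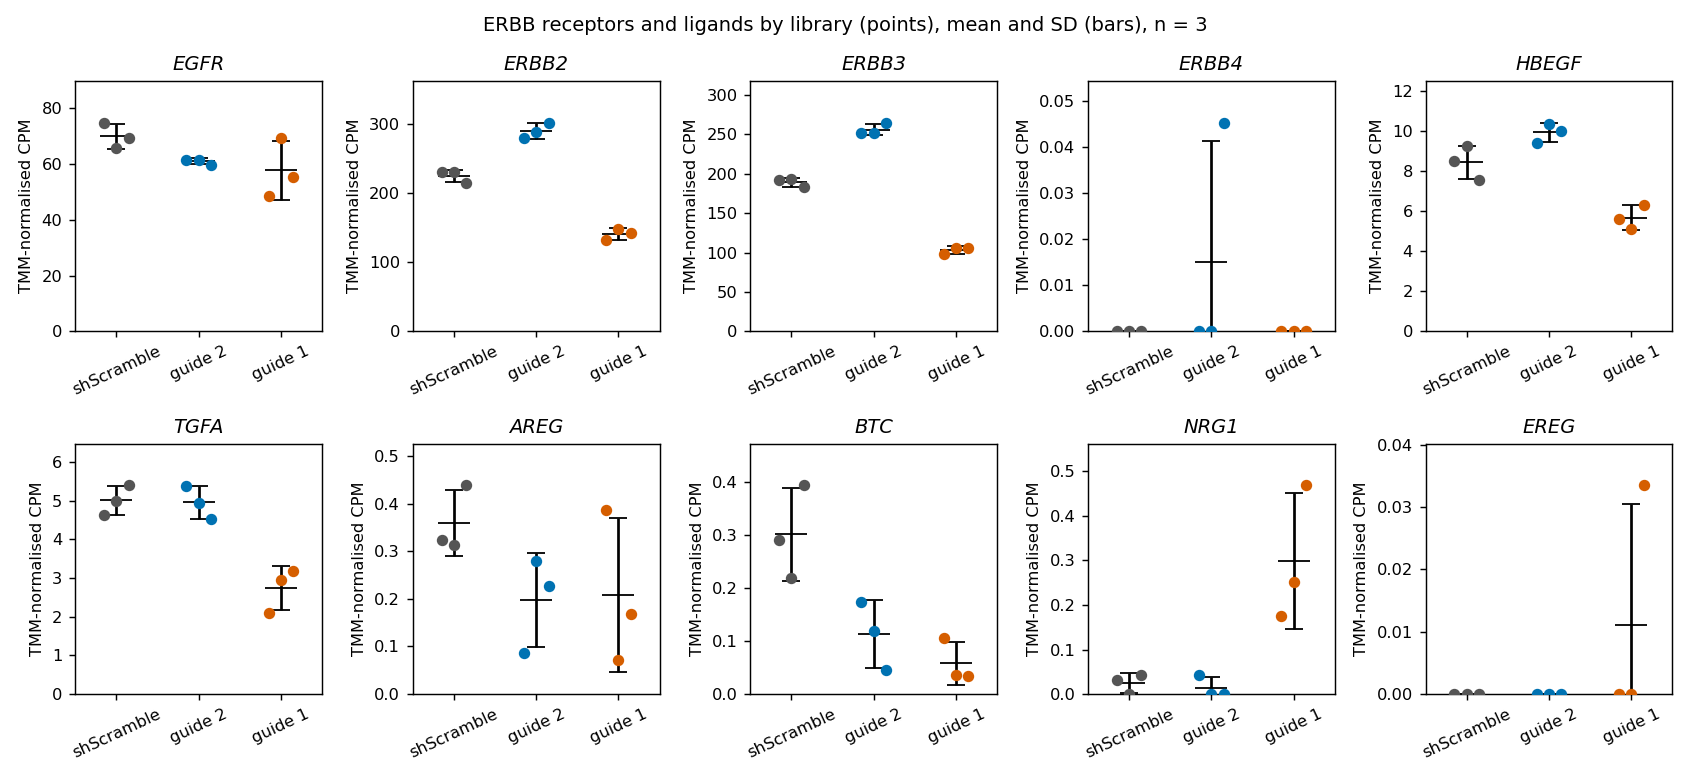
TMM-normalised CPM (linear axis from 0, a scale of its own for each gene) of the 10 members in the 9 libraries, as points, with the mean and SD of each group of 3. ERBB2 and ERBB3 are highest with guide 2 and lowest in the guide 1 libraries without overlap, EGFR in guide 1 spreads from 48.6 to 69.4 CPM, and ERBB4 and EREG show a single count in a single library.

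ERBB2 (ENSG00000141736, chromosome 17 of GRCh38, 39687914 to 39730426, plus strand), the receptor without a ligand, was the member with the highest count. It had 230, 230 and 215 CPM in the shScramble libraries, 280, 289 and 302 with guide 2, and 132, 148 and 143 in the guide 1 libraries. Every guide 2 library was above and every guide 1 library below all controls. The log2 fold change was 0.37 with guide 2 (standard error 0.0482, adjusted p = 2.3e-07, edgeR's quasi-likelihood test), below the fold limit, and -0.68 with guide 1 (standard error 0.0488, adjusted p = 1.02e-12). Exons of the neighbours MIEN1 and PGAP3, which are transcribed the other way, overlap 5.53% and 1.88% of the exon bases of ERBB2, and the sources used here do not state whether counting used strand. MIEN1 had a log2 fold change of 0.29 with guide 2 and -0.65 with guide 1, and PGAP3 of 0.05 and -0.56. What part these shared bases had in the counts of ERBB2 was not tested.

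ERBB3 (ENSG00000065361, chromosome 12, 56079857 to 56103505, plus strand), the neuregulin receptor with the impaired kinase, had 192, 193 and 183 CPM with shScramble. The corresponding values were 252, 252 and 265 CPM with guide 2 and 98.1, 106 and 106 CPM in the guide 1 libraries. As for ERBB2, the 3 groups did not overlap, and guide 2 was highest. The log2 fold change was 0.44 with guide 2 (standard error 0.0454, adjusted p = 3.71e-09, edgeR's quasi-likelihood test) and -0.87 with guide 1 (standard error 0.0464, adjusted p = 1.27e-15). Only the second passed the fold limit. The direct difference between guide 2 and guide 1 was 1.31 for ERBB3 (standard error 0.0466, adjusted p = 8.97e-20) and 1.04 for ERBB2 (standard error 0.049, adjusted p = 4.5e-17).

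EGFR (ENSG00000146648, chromosome 7, 55019021 to 55256620, plus strand), the founding receptor of the family, did not share this pattern. It had 74.8, 65.9 and 69.4 CPM with shScramble, 61.6, 61.6 and 59.7 with guide 2 and 48.6, 69.4 and 55.4 in the guide 1 libraries. All guide 2 libraries were below the controls, and guide 1 replicate 2 lay within the range of the controls. The log2 fold change was -0.20 with guide 2 (standard error 0.114, adjusted p = 0.158, edgeR's quasi-likelihood test) and -0.28 with guide 1 (standard error 0.113, adjusted p = 0.0531), and neither was called. The adjusted p varied with the setting (edgeR unless DESeq2 is named), and every change here was under the fold limit. With guide 2, the 6 libraries compared alone gave 0.000449 (change -0.21, standard error 0.051). No low-count filter gave 0.0095 and library size alone 0.0414. DESeq2 (0.0625), a 1 CPM minimum mean (0.0843), the replicate block (0.144) and edgeR with DESeq2 size factors (0.178) gave more than 0.05. With guide 1, no filter (1.23e-05), DESeq2 (0.00581), the block (0.0444) and the minimum mean (0.0467) gave less than 0.05. DESeq2 size factors (0.0601), library size alone (0.0709) and the 6 libraries compared (0.103) gave more. What part the spread of the guide 1 libraries had in this was not tested. The antisense gene EGFR-AS1 overlaps 1.44% of the exon bases of EGFR.

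ERBB4 (ENSG00000178568, chromosome 2, 211375717 to 212538841, minus strand), the other neuregulin receptor, had 1 count in guide 2 replicate 3 and 0 in the other 8 libraries. It was not detectable at this depth in any group.

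The make-up of the receptor RNA was then described per kilobase. EGFR made up 11% ± 0.679 of the summed RNA of the 4 receptors with shScramble, 7.54% ± 0.346 with guide 2 and 14.8% ± 1.76 in the guide 1 libraries (SD, n = 3 each). The 3 groups did not overlap. The level of EGFR itself was 5.41, 4.71 and 4.46 CPM per kilobase in the same order and was not called, so its larger share with guide 1 is not a rise of EGFR. ERBB2 held 44.4% ± 0.436, 45.1% ± 0.517 and 45.4% ± 0.529 in the same order, a range of about 1 percentage point between group means. The share of ERBB3 was 44.5% ± 0.369, 47.4% ± 0.371 and 39.8% ± 1.25. Summed over the 4 receptors, the level was 49.1 ± 1.57 CPM per kilobase with shScramble, 62.4 ± 1.81 with guide 2 and 30.1 ± 2.06 in the guide 1 libraries. These shares and sums are descriptions of the chosen genes and were not tested.

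**Figure D2:**
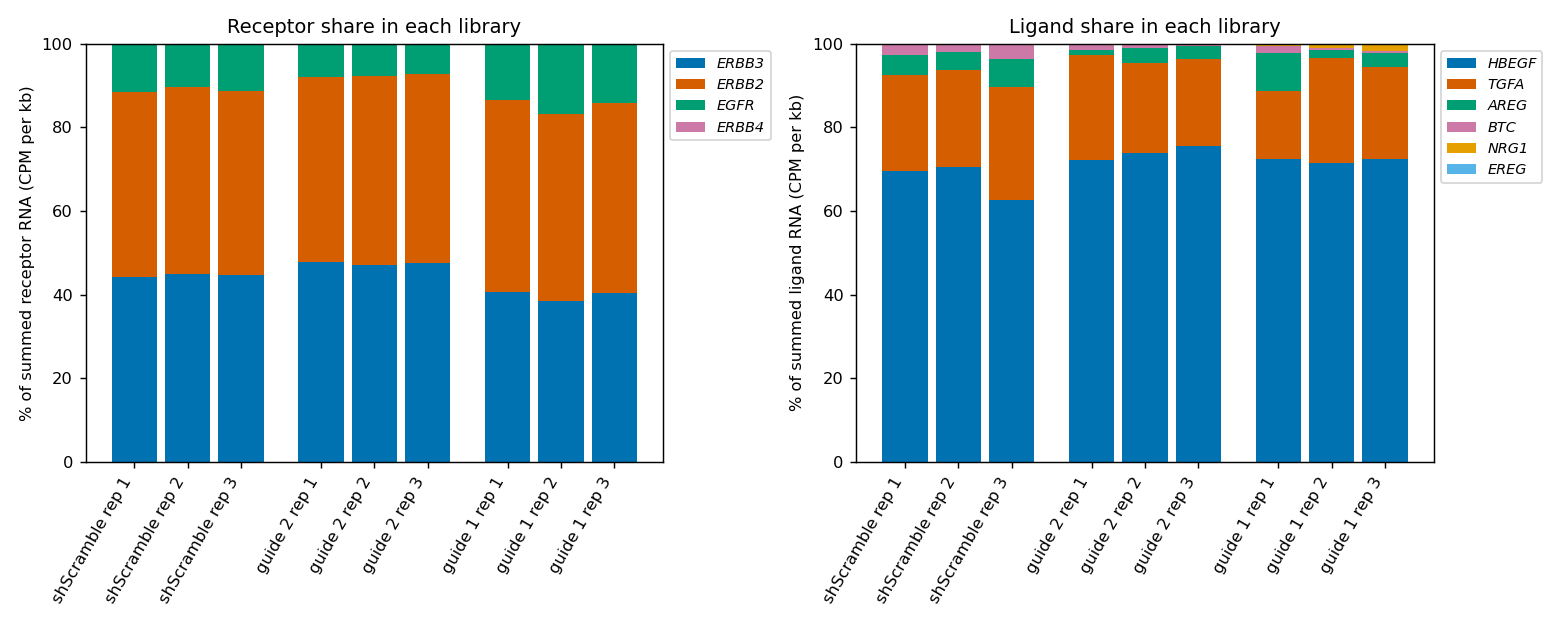
Share of each gene in the summed receptor RNA (left) and in the summed RNA of the 6 member ligands (right) of each library, in % of CPM per kilobase, with 1 bar per library (rep, replicate). ERBB2 keeps a mean share of 44.4% to 45.4% in all groups, EGFR is smallest with guide 2, and HBEGF is the largest ligand part in every library.

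Of the ligands, HBEGF (ENSG00000113070, chromosome 5, 140332843 to 140346631, minus strand) had 8.51, 9.23 and 7.58 CPM with shScramble. With guide 2 it had 9.41, 10.4 and 10.0 CPM, and in the guide 1 libraries 5.62, 5.11 and 6.32 CPM. The guide 1 libraries were below all controls and the guide 2 libraries just above them. The log2 fold change with guide 2 was 0.23 (standard error 0.11, adjusted p = 0.0749, edgeR's quasi-likelihood test). With guide 1 it was -0.58 (standard error 0.115, adjusted p = 7.65e-05), a 1.49-fold difference just inside the fold limit, so HBEGF was not called. Without shScramble replicate 3 (-0.65) or without guide 1 replicate 3 (-0.66) it was called. The guides differed directly by 0.80 (standard error 0.116, adjusted p = 5.09e-07).

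TGFA (ENSG00000163235, chromosome 2, 70447280 to 70554193, minus strand) had 4.63, 4.99 and 5.39 CPM with shScramble and 5.38, 4.94 and 4.53 with guide 2. It had 2.11, 2.95 and 3.18 CPM in the guide 1 libraries. The guide 2 libraries covered the range of the controls, and the guide 1 libraries lay below both. The log2 fold change was -0.01 with guide 2 (standard error 0.15, adjusted p = 0.964, edgeR's quasi-likelihood test) and -0.86 with guide 1 (standard error 0.158, adjusted p = 2.51e-05). The direct difference between guides was 0.85 (standard error 0.162, adjusted p = 3.24e-05).

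BTC, or betacellulin, a ligand of EGFR and ERBB4, had 9, 7 and 9 counts with shScramble, 4, 3 and 1 with guide 2 and 3, 1 and 1 in the guide 1 libraries. Both shMETTL3 groups lay below the controls in every library, and every guide 1 library was at or under the floor of 3 counts. The ratio of summed counts, corrected for library size, was 0.39 for guide 2 to shScramble (95% counting interval 0.152 to 0.892) and 0.199 for guide 1 to shScramble (0.0594 to 0.528). The exact two-sided permutation p was 0.1 in both cases, the smallest that 3 libraries against 3 allow. Counting intervals cover counting error only.

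AREG, or amphiregulin, an EGFR ligand, had 10 counts in each shScramble library, 2, 7 and 5 with guide 2 and 11, 2 and 5 in the guide 1 libraries. In CPM, the guide 2 libraries lay below the controls, and of the guide 1 libraries replicate 1 lay within their range and the others below it. The ratio to shScramble was 0.569 with guide 2 (95% counting interval 0.279 to 1.11, exact permutation p = 0.1) and 0.596 with guide 1 (0.313 to 1.10, exact permutation p = 0.3). Both intervals include 1, so a difference was not detectable at this depth.

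NRG1, the neuregulin that activates ERBB3 and ERBB4, had 1, 0 and 1 counts with shScramble and 1, 0 and 0 with guide 2, at or under the floor in every library. The guide 1 libraries had 5, 7 and 14 counts, all above the others. The ratio of guide 1 to shScramble was 12.9, with a 95% counting interval of 3.23 to 112 and an exact permutation p of 0.1. EREG, or epiregulin, had 1 count in guide 1 replicate 3 and 0 in the other 8 libraries. When genes were tested without the filter on low counts, BTC (log2 fold change -2.26, adjusted p = 0.0193, edgeR's quasi-likelihood test) and NRG1 (3.43, adjusted p = 0.00271) were called in the guide 1 libraries and none of the 10 members was called with guide 2. Of the 38951 genes tested in that setting, 7859 were called with guide 1 and 6027 with guide 2.

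By position, 3 of the ligands that were near or at the floor sit together on chromosome 4. EREG and AREG lie 56.4 kb apart, and EPGN, a further EGFR ligand with 0 counts in all 9 libraries, lies 49.8 kb from EREG. BTC lies 290 kb beyond AREG on the same chromosome. HBEGF and NRG2, a neuregulin gene described next, are 290 kb apart on chromosome 5.

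The 5 other genes that encode ERBB ligands were read beside the members. EGF, the ligand that gives EGFR its name, had 20.9, 19.3 and 19.8 CPM with shScramble, 21.8, 23.3 and 21.8 with guide 2 and 9.55, 10.9 and 9.67 in the guide 1 libraries. Per kilobase, EGF (3.27 ± 0.136) stood above HBEGF in the shScramble libraries, and their ranges did not overlap there. EGF was called lower in the guide 1 libraries (log2 fold change -0.99, standard error 0.0819, adjusted p = 1.59e-11, edgeR's quasi-likelihood test), but with guide 2 the change was 0.16 (adjusted p = 0.0783).

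The neuregulin genes NRG2, NRG3 and NRG4 were low in the controls. NRG2 had 8, 3 and 10 counts with shScramble, 0, 1 and 0 with guide 2 and 101, 97 and 121 in the guide 1 libraries. The ratio of counts to shScramble was 0.058 with guide 2 (95% counting interval 0.0014 to 0.361). NRG2 passed the filter on low counts only through the guide 1 libraries and was not tested when the 6 libraries of the guide 2 comparison were taken alone, so that its call there is not used. It was called higher with guide 1, the group that admitted it, where the ratio was 15.1 (9.70 to 24.7). NRG3 had 41, 40 and 22 counts with shScramble, 1, 2 and 0 with guide 2 and 8, 8 and 6 in the guide 1 libraries. The ratios of NRG3 counts to shScramble were 0.0355 (0.0072 to 0.107) for guide 2 and 0.212 (0.127 to 0.339) for guide 1. NRG3 passed the filter on low counts only through the shScramble libraries, where it is high. Its calls as lower in both are therefore given as a description. NRG4 had log2 fold changes of -0.76 with guide 2 (adjusted p = 0.0494, edgeR's quasi-likelihood test) and 0.69 with guide 1 (adjusted p = 0.0271), and neither passed with DESeq2 (adjusted p = 0.0903 and 0.0552). Exons of FBXO22, on the opposite strand, cover 38.1% of the exon bases of NRG4. FBXO22 had a log2 fold change of -0.07 with guide 2 and 0.06 with guide 1, and neither was called. What part the shared bases had in the counts of NRG4 was not tested.

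**Figure D3:**
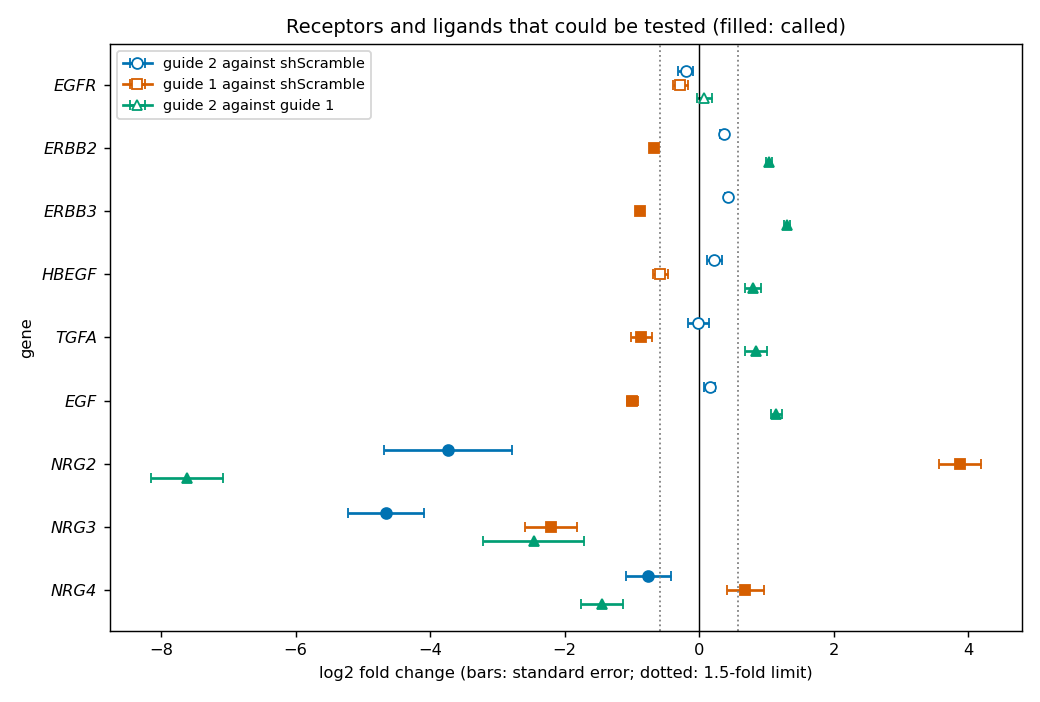
Log2 fold changes (horizontal axis) with standard errors for the 5 tested members and the 4 other ligand genes tested, in the 3 comparisons; filled symbols were called and dotted lines mark the 1.5-fold limit of 0.58. ERBB2 and ERBB3 lie right of 0 with guide 2 and left of it with guide 1, and NRG2, at 0 or 1 count with guide 2, has fitted values from -7.62 between the guides to 3.88 with guide 1.

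Upstream and downstream of the receptors, 8 hand-written lists of 102 genes in all were read, and 96 of these genes were tested. They include the 5 other ligand genes described above and 9 genes that release or process ligands. With guide 2, 8 were called higher and 11 lower, 19.8% of those tested, beside 29.3% of all tested genes. In the guide 1 libraries, 17 were called higher and 18 lower, or 36.5%, beside 37.7% of all tested genes. By direction, 8.85% of all tested genes were called higher and 20.4% lower with guide 2, and 21.2% higher and 16.5% lower with guide 1, and the counts of each list below stand beside these shares. Of 13 genes of the RAS-ERK cascade, 1 was called lower with each guide and 0 higher. Of 15 tested genes of the PI3K-AKT cascade, 1 was called higher and 2 lower with guide 2, and 1 higher and 3 lower with guide 1.

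Among the genes that release or process ligands, 3 of 9 were called higher and 1 lower with guide 2, and 4 lower with guide 1. Of all tested genes, 8.85% were called higher and 20.4% lower with guide 2, and 16.5% lower with guide 1. RHBDL2, a rhomboid protease, rose with guide 2 from 1.69 ± 0.181 to 3.83 ± 0.284 CPM (log2 fold change 1.17, adjusted p = 4.77e-06, edgeR's quasi-likelihood test). The list of adaptors and proximal kinases had 2 of 21 genes called higher and 2 lower with guide 2, and 6 higher with guide 1, where 21.2% of all tested genes were called higher. SHC3 and SHC2, related adaptors that are best known from neurons, went opposite ways with guide 2. SHC3 rose 2.83-fold (adjusted p = 6.15e-06, edgeR's quasi-likelihood test) and SHC2 fell (log2 fold change -2.70, adjusted p = 1.12e-10). SHC2 was called higher in the guide 1 libraries.

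In the STAT branch, 0 of 4 genes were called with guide 2 (edgeR, with 3 of 4 at an adjusted p under 0.05 and no fold limit) and 2 were called lower with guide 1, among them STAT5A, a transcription factor (-0.89, adjusted p = 0.000244).

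Of 19 tested receptor inhibitors and feedback genes, 2 were called lower with guide 2, and 3 were called higher and 3 lower with guide 1. SPRED3, an inhibitor of RAS-ERK signalling, fell with guide 2 (log2 fold change -1.95, adjusted p = 5.22e-06, edgeR's quasi-likelihood test), and CBLC, a ubiquitin ligase of the CBL family, fell in the guide 1 libraries (-0.83, adjusted p = 5.16e-08). Of 11 tested genes known to be transcribed in response to ERK, 2 were called higher with guide 2, one of them MYC (0.92, adjusted p = 1.67e-15), a growth-promoting transcription factor. In the guide 1 libraries 5 of the 11 were called higher and 3 lower, beside 21.2% and 16.5% of all tested genes, and JUN, a subunit of the AP-1 transcription factor, rose from 75.2 ± 3.44 to 313 ± 33.3 CPM (2.06, adjusted p = 2.84e-19).

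**Figure D4:**
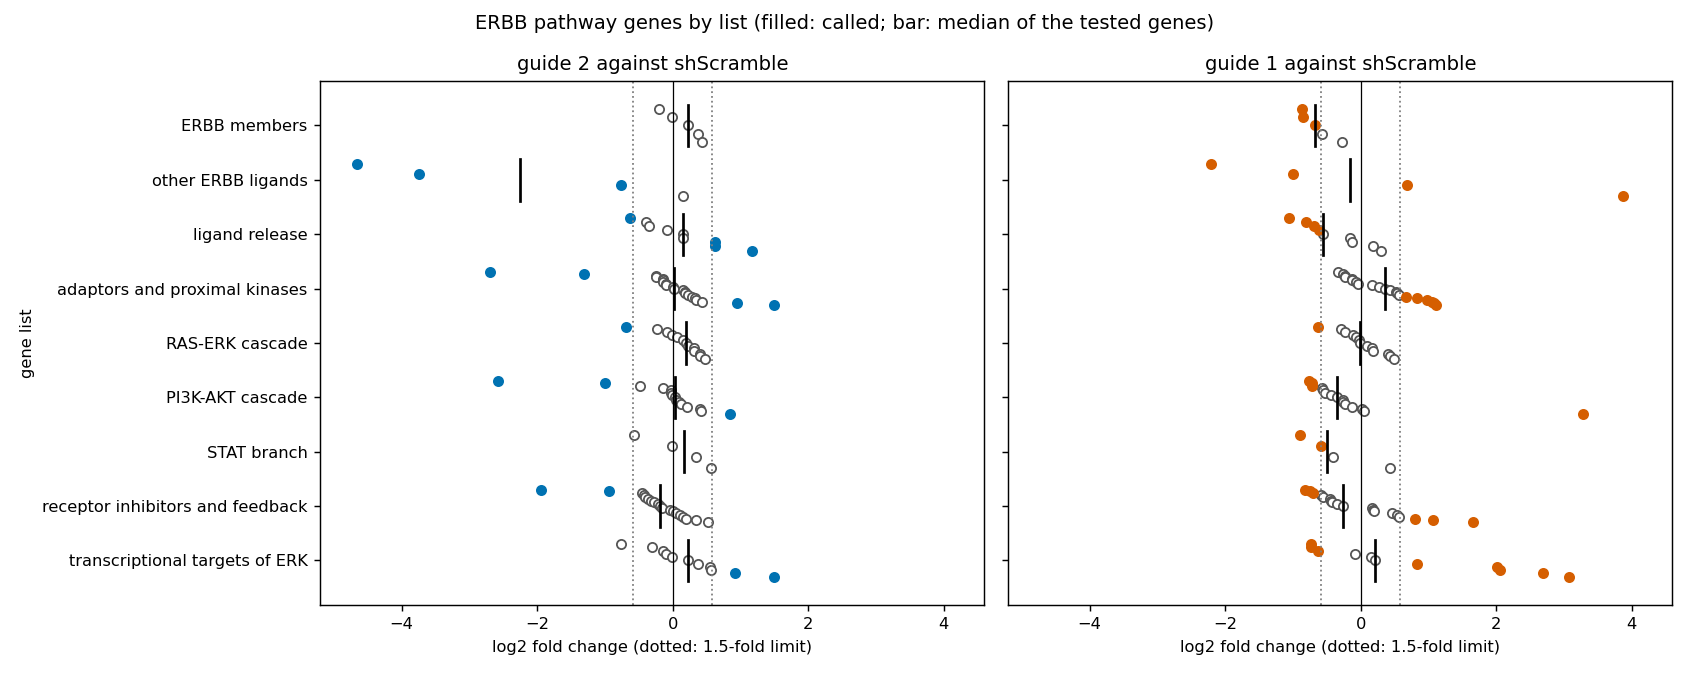
Log2 fold changes (horizontal axis) of the tested members and of the tested genes of the 8 pathway lists against shScramble, with guide 2 on the left and guide 1 on the right. Each point is a gene, filled where called, and the vertical bar is the median of the list, which for the members is 0.23 with guide 2 and -0.68 with guide 1.

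Markers of cell types moved with the groups as well. The summed level of 10 luminal prostate markers (KLK3, KRT8, KRT18 and others) was 2790 to 2826 CPM in the shScramble libraries, 3324 to 3450 with guide 2 and 1465 to 1508 in the guide 1 libraries, where 6 of 10 were called lower and 0 higher. With guide 2, 3 of the 10 were called higher and 1 lower. The sum is weighted toward the most abundant genes and does not give the direction of each gene. The paper reports KLK3 as lower after METTL3 knockdown. The median log2 fold change of the 10 was -0.67 in the guide 1 libraries, where 4 were not called. With guide 2 it was 0.15, and 6 were not called. The opposite was seen for 7 genes that HEK293-type cells express (LIN28B, IGF2BP1, HMGA2, NEFL, NEFM, INA and PAX2), HEK293T being the line in which the lentivirus was made. Their sum was 28.8 to 32.2 CPM with shScramble, 3.51 to 5.29 with guide 2 and 312 to 327 in the guide 1 libraries. Of these, 7 of 7 were called lower with guide 2 and higher with guide 1. The list was chosen with earlier results of these data known, so this count is a description only. Of all tested genes, 8.85% were called higher and 20.4% lower with guide 2, and 21.2% higher and 16.5% lower with guide 1. The counts of every marker list, here and in the next paragraph, stand beside these shares. All 7 were above 3 counts in at least 1 shScramble library, and with guide 2 NEFM was not.

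A list of 8 genes of mesenchymal-like lines (VIM, CAV1 and others) summed to 29.5 to 30.9, 4.85 to 5.26 and 149 to 191 CPM in the same order, with 6 of 6 tested genes called lower with guide 2 and 4 called higher with guide 1. For 5 neuroendocrine markers the sums were 12.4 to 13.1, 14.6 to 17.2 and 38.4 to 42.6 CPM. With guide 2, 1 of 4 tested neuroendocrine markers was called higher and 2 lower, and with guide 1 3 were called higher. The 5 basal epithelial markers summed to at most 0.199 CPM in any library, with KRT5 and TP63 at 0 counts in every group. The part of these marker genes' cells or programmes in the values of the ERBB genes was not tested.

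**Figure D5:**
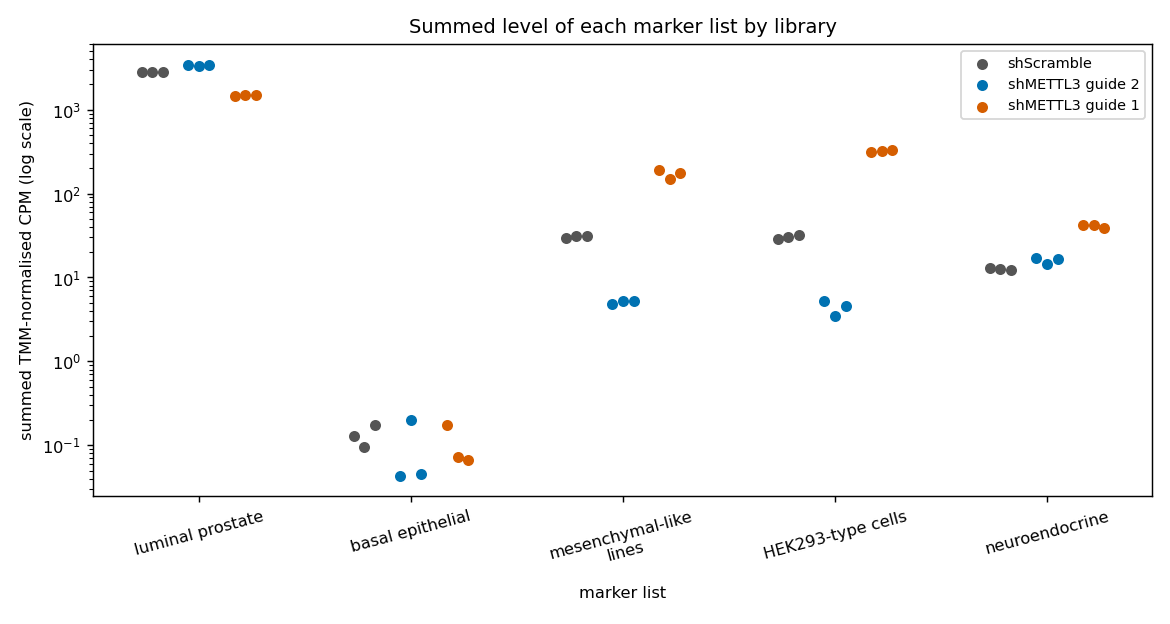
Summed TMM-normalised CPM (log axis) of the 5 marker lists in each of the 9 libraries, coloured by group. Luminal markers are lowest in the guide 1 libraries, whereas the lists for mesenchymal-like and HEK293-type cells are highest there and lowest with guide 2.

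The promoters of the tested members are shown because ERBB2, TGFA and HBEGF were called together between the guides and EGFR was not. They are the 250 bases before a start site that RefSeq gives on GRCh38.p14, on the gene's own strand, 5′ to 3′, with GC boxes (GGGCGG, either strand) and CCAAT boxes (either strand) in capitals. The RefSeq start is not always the outermost one of the gene span given above. Where RefSeq gave several starts for a gene, the one nearest the 5′ end of that span was taken. Windows of other starts, which a gene may use more, were not read. The whole TGFA window, 180 bases of the ERBB2 window and 28 bases of the HBEGF window lie inside that span, and 0 bases of the EGFR window do. Of the 10 members, 8 had an entry. ERBB3 and NRG1 are named only.

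EGFR, chr7:55018767-55019016, plus strand: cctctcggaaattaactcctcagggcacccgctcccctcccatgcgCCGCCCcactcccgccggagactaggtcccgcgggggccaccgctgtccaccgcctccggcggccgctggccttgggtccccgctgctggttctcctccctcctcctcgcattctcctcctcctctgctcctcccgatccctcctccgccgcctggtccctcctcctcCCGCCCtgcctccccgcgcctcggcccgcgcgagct

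ERBB2, chr17:39687844-39688093, plus strand: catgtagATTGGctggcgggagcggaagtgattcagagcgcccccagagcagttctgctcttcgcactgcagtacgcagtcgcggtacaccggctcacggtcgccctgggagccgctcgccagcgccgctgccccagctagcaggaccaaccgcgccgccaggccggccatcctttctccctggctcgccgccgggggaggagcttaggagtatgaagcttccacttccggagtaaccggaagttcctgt

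HBEGF, chr5:140346604-140346853, minus strand: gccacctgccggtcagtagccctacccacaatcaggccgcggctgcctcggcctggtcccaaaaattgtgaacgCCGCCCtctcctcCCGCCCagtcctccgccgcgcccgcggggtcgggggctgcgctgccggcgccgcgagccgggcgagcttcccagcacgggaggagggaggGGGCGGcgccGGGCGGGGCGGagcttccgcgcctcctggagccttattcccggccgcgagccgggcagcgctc

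TGFA, chr2:70553827-70554076, minus strand: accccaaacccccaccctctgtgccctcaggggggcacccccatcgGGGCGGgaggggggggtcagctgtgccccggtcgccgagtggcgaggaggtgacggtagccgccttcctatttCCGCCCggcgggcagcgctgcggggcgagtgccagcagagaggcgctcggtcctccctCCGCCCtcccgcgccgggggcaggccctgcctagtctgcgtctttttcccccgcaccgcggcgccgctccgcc

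The windows of EGFR, HBEGF and TGFA were rich in G and C, at 73.6%, 76.4% and 75.6%, and that of ERBB2 held 65.6%, where the median over 35116 RefSeq windows was 58.0%. Counting overlapping matches, the GC box occurred 2 times in EGFR, 5 times in HBEGF, 3 times in TGFA and 0 times in ERBB2, and 42.6% of all windows held at least 1. The ERBB2 window held 1 CCAAT box on the opposite strand, as did 32.0% of all windows on either strand, and the other windows shown held 0. None of the 4 held TATAAA, which occurred in 10.7% of all windows. These are matches of letters only.

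Across the 9 libraries, the genes whose log2 expression was most like that of ERBB3, the receptor with the largest change with guide 2, were EPHA1, an ephrin receptor kinase (Pearson r = 0.999), HAGHL (0.999) and TC2N (0.998). For HBEGF, which of the 2 tested member ligands had the larger log2 fold change with guide 2 (0.23, not called), GNB5 (0.987) and H3C10 (0.985) were among the 3 most alike. The 9 points fall into 3 groups, and 1258 of 10365 genes had an r over 0.95 with ERBB3 and 401 of 10366 with HBEGF, so that these are descriptions of a common pattern.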

How the data were processed

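RNA-seq counts of 9 LNCaP:C4-2 libraries (3 shScramble, 3 shMETTL3 guide 2, 3 shMETTL3 guide 1, grouped by the sample titles) were analysed. The deposited values are raw counts per gene, which the authors made by trimming with Trim Galore and cutadapt, aligning to Ensembl-annotated GRCh38 with STAR and counting with featureCounts, without normalization or pooling. Tool versions and the strand setting are not given in the sources used here, so reads of overlapping genes could be assigned to either gene or dropped. Symbols came from a later annotation of the same build.

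Of 60675 genes, 19278 passed filterByExpr of edgeR, with its limits at 10 for the count and 15 for the total. They were scaled by TMM and tested with edgeR 4.0.16 (quasi-likelihood F test, robust, all 9 libraries in one model, no covariates). P-values were adjusted over all genes tested. DESeq2 1.42.0, other scalings and filters, only the 6 libraries compared, a replicate block, the adjusted p alone and each library left out in turn were the alternatives. Means and SDs are of TMM-normalised CPM. Ratios of low counts have exact conditional binomial intervals (95%), and single values an exact permutation test. The procedure was tested on simulated counts.

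The members, gene lists, tests and rules were chosen with earlier results of these data known. Named genes were all members and other ligands, METTL3, genes overlapping these, for each guide the called pathway genes that rose most and fell most, 3 each (mean of at least 1 CPM, no overlap of groups), and the 3 genes most like ERBB3 and HBEGF (mean of at least 10 CPM). Some genes that these rules name are not reported here. Replicate pairs differed by more than counting error, with a chi-square per gene of 3.71 to 9.84, so each library counted once. Same-numbered libraries did not deviate together (correlations of -0.0981 to 0.0529), so replicate numbers were not used to pair them.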

Additional observations from a re-analysis of the deposited data

Results flagged for a closer look

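The effects of the 2 guides against the shared shScramble libraries differed for several genes, by the direct test of guide 2 libraries against guide 1 libraries (edgeR's quasi-likelihood test, 3 libraries each, adjusted over all genes tested, of which 47.3% were called). Among the receptors the difference on the log2 scale was 1.04 for ERBB2 and 1.31 for ERBB3. Among the member ligands it was 0.85 for TGFA and 0.80 for HBEGF. In all 4, every guide 2 library was higher than every guide 1 library. Of the other ligands, EGF differed by 1.15, and NRG2 (-7.62), NRG3 (-2.46) and NRG4 (-1.44) differed in the other direction. Of the named pathway genes, RHBDL2 (1.79), SHC3 (1.55), CBLC (0.79) and MYC (0.71) were higher with guide 2, and SHC2 (-3.67), JUN (-2.37) and SPRED3 (-2.12) were lower. Without TMM factors, the difference of MYC was 0.57, below the fold limit. With 1 count of NRG2 and 3 of NRG3 over the guide 2 libraries, the fitted values of these genes depend on the prior count. NRG2 passed the filter on low counts only through the guide 1 libraries, where it is high, so that its difference is given as a description. NRG3 passed it through the shScramble libraries and was not tested with the libraries of the 2 guides alone.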

How the results depend on the processing

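The number of members called was 0 with guide 2, 3 with guide 1 and 4 between the guides, and stayed within 1.5 times of these except in 2 settings. Without the filter on low counts, 5 members were called with guide 1, since BTC and NRG1 entered the test. Of the 38951 genes tested without the filter, 7859 were called with guide 1. With the adjusted p alone and no fold limit, 2 members (ERBB2 and ERBB3) were called with guide 2. That setting also called 11910, 13188 and 14386 of all genes and 61, 84 and 77 pathway genes in the same order of comparisons, against 5645, 7265 and 9125 and against 19, 35 and 44. Scaling by library size, without TMM factors, the median log2 fold change of all genes moved from -0.04 to -0.19 with guide 2 and from -0.06 to -0.20 between the guides, and the share of higher calls with guide 2 from 30.2% to 17.2%. The changes of ERBB2 and ERBB3 with guide 2 were then 0.22 and 0.28, that of HBEGF 0.08 and that of EGFR -0.35, and HBEGF was called with guide 1 (-0.59). Leaving out 1 library at a time gave 0 members with guide 2, 3 to 4 with guide 1 and 4 between the guides. It gave 5314 to 5789, 7040 to 7575 and 9074 to 9433 of all genes and 18 to 20, 32 to 37 and 44 to 46 pathway genes.

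Directions changed only where the change was near 0. For EGFR between the guides it was -0.0599 with library size alone, and -0.0319 to 0.237 when 1 library was left out, the lowest without guide 1 replicate 1. TGFA with guide 2 was 0.000811 with DESeq2 size factors and 0.0125 without the filter, and ranged from -0.068 to 0.0528 with 1 library left out, above 0 without replicate 3 of shScramble or of guide 2. CBLC with guide 2 then ranged from -0.101 to 0.0207, above 0 without replicate 1 of either group, and SHC3 with guide 1 from -0.176 to 0.175, likewise. The call of NRG4 with guide 2 was lost in most settings, and without a single library of any group its change lay between -0.89 and -0.59. RHBDL2 with guide 1 lost its call without shScramble replicate 1 (-0.56) or guide 1 replicate 1 (-0.54). The cause of these changes was not tested. Without the division by exon length, which gives longer genes more weight, the shares of receptor RNA with shScramble, guide 2 and guide 1 were 14.5%, 10.1% and 19.0% for EGFR, 46.5%, 47.8% and 46.7% for ERBB2 and 39.1%, 42.2% and 34.3% for ERBB3. Leaving out 1 library gave per-kilobase shares of EGFR of 10.8% to 11.4%, 7.42% to 7.74% and 13.8% to 15.4% in the same order.

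With the replicate number as a block, 5494, 7140 and 9027 genes, 0, 3 and 4 members and 18, 34 and 44 pathway genes were called. In no comparison did every library correlate best with its own number. ERBB4, EREG, NRG1 outside guide 1 and BTC in guide 1 were at or under the floor of 3 counts, so that depth sets what can be said of them.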
